A study of Mus musculus with 23 samples.

Results

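Regulators of epithelial splicing and epithelial identity were followed through 23 cell lines of murine pancreatic ductal adenocarcinoma (PDAC). They were Esrp1, Esrp2, Grhl2, Ovol1, Ovol2, Elf3, Ehf, Klf5 and St14. The 9 genes were taken by name, and a probe set was assigned to a gene only where the platform annotation gave that symbol and no other. They had 19 probe sets of the 45037 analysed, and were 9 of 18193 genes measured in this way. Each gene was represented by its probe set with the highest mean over the 23 lines, and its other probe sets, where it had any, served as a check.

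The lines were grown from primary tumours (PPT lines) or metastases of genetically engineered mice. RNA of untreated, low-passage cultures was measured on Affymetrix GeneChips for the mouse genome, each line on a single array. All values are log2 signals, and with 1 array a line's own value has no error. Brightness depends on the probes, so signals of different probe sets were not set against each other.

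There were 11 metastasis lines and 12 primary tumour lines, from 14 mice in all. The study tested the lines against Bez235, an inhibitor of PI3K and mTOR, and 9 lines had an IC50 above its cutoff (high Bez235 IC50) and 14 lines below it (low Bez235 IC50). Where the study lists the genotype, the mice carried Ptf1a Cre or, for PPT-3250, PPT-6051 and B-6051, Pdx1-Cre, which are drivers of the pancreatic lineage. A mutant Trp53 R172H allele is listed for 6 lines (PPT-3107, PPT-5193, ASC-5193, PPT-5486, PPT-6051 and B-6051) and no Trp53 allele for 7 others. Some of these 13 lines carry Tva-lacZ or PCNA-fLuc reporter alleles as well. For the other 10 lines, which come from the mice of HEP-5123, PPT-15272 and PPT-53631, the study's table used here lists no genotype. It does not explain the prefix B either, and the line labelled B-152727 was taken as a line of mouse 15272.

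Epithelial cells hold together through adherens junctions built on E-cadherin (Cdh1), and carcinoma cells can give up this state in an epithelial-mesenchymal transition (EMT). ESRP1 and ESRP2 are RNA-binding proteins that set the epithelial form of transcripts such as Fgfr2, Cd44 and Ctnnd1. GRHL2, the OVOL zinc-finger repressors, the ETS factors ELF3 and EHF, and KLF5 are transcription factors of epithelia, and St14 encodes matriptase, a membrane-bound serine protease of the epithelial surface. ZEB, SNAIL and TWIST factors oppose this programme, and ZEB and SNAIL proteins bind E-box motifs in promoters of epithelial genes.

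The signals of Cdh1 fell into separate ranges. In 6 lines Cdh1 lay between 2.22 and 6.48, and in the other 17 lines between 10.23 and 11.81, which left an empty interval of 3.75. The lines with low Cdh1 were PPT-3250 at 2.22, ASC-5193 at 2.75, PPT-16992 at 3.59, PPT-17728 at 4.81, PPT-5320 at 5.87 and ASC-53909 at 6.48. The next line was HEP-5123 at 10.23. The 6 lines came from 6 mice, comprised 2 metastasis lines and 4 primary tumour lines, and included 2 with high and 4 with low Bez235 IC50. The other 17 lines came from 9 mice, so several of them share a mouse. Because the lines were ordered by signals of the same arrays, the contrasts between them are described without a test.

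In the median, all 9 genes were lower in the lines with low Cdh1 than in the other lines. The difference was small for Ovol1 (-0.04), Ovol2 (-0.16), Grhl2 (-0.25) and Esrp1 (-0.27). The median SD of a probe set over the lines was 0.28, and the other Grhl2 probe sets differed by -0.17, 0.21 and -0.01. The share of all genes with a lower median was not counted. For 2 of the 9 genes, Esrp2 and Elf3, every line with low Cdh1 lay below every other line. Of all 18193 genes, 198 (1.09%) were separated in this direction and 103 (0.566%) in the opposite one. The median difference was below -1 for 5 of the 9 genes (Ehf, Esrp2, Elf3, St14 and Klf5) and for 4.51% of all genes. The median of the 9 differences was -1.57, and that of all genes 0.0.

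**Figure D1:**
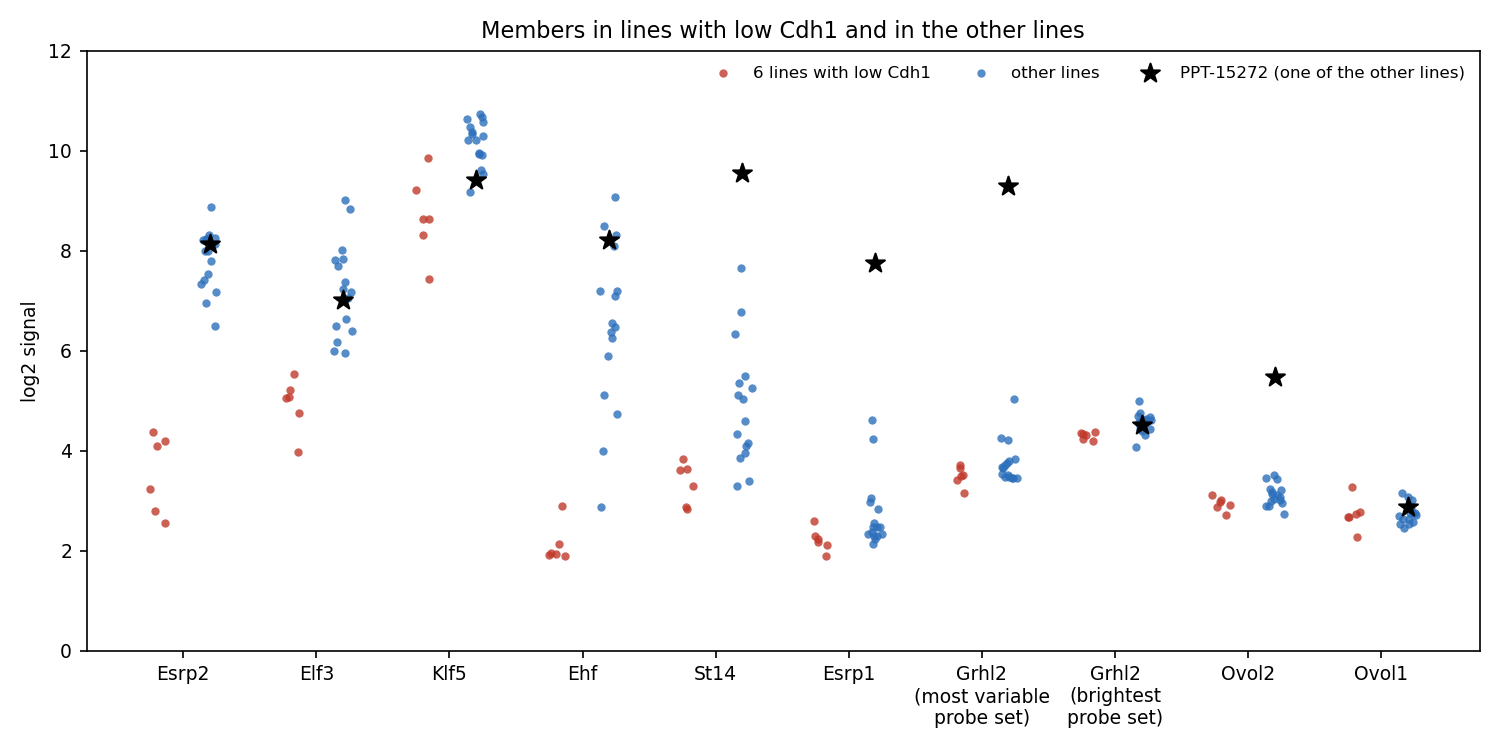
Log2 signal of each gene (vertical axis) in the 6 lines with low Cdh1 (red) and the other lines (blue), 1 point per line, with the line PPT-15272 as a black star; Grhl2 is shown with its most variable and its brightest probe set. Esrp2 and Elf3 separated completely, Ehf and St14 spread widely among the other lines, and Esrp1, Ovol2 and the most variable Grhl2 probe set stood apart in PPT-15272; heights of different genes are not comparable.

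Esrp2, the first of the splicing regulators, showed the widest separation. Its signals were 2.55 in ASC-5193, 2.79 in ASC-53909, 3.23 in PPT-16992, 4.09 in PPT-3250, 4.20 in PPT-17728 and 4.37 in PPT-5320. The other 17 lines lay between 6.49 (PPT-5486) and 8.87 (PUL-15272), with a median of 7.99. The groups did not overlap, and the medians differed by -4.33 in log2 signal. No fold is given, since only 3 of the 6 lines with low Cdh1 were above their array's median. The dimmer Esrp2 probe set ran in the same direction, at 4.41 to 4.89 in the lines with low Cdh1 and 4.79 to 6.17 in the other lines, where 2 of the 17 lines fell within the range of the low group.

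Esrp1, its paralog, behaved differently. It was between 1.90 and 2.60 in the lines with low Cdh1 and had a median of only 2.47 in the other lines. Its signal was above the array's median in 3 of the 23 lines, namely PPT-15272 (7.76), HEP2-53631 (4.61) and LN1-15272 (4.23). All other lines lay at or below 3.06, so most lines with high Cdh1 could not be told from the lines with low Cdh1 by Esrp1. Such signals lie close to the lower end of the array's range.

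Of 8 transcripts known to be spliced by ESRP proteins, 4 were lower, 3 higher and 1 equal in the median in the lines with low Cdh1. Among the 4 lower ones, 1 was separated. That transcript, Epb41l5, a FERM-domain protein of the cell cortex, lay between 3.52 and 4.81 in the lines with low Cdh1 and between 5.27 and 7.71 in the other lines. Fgfr2 was at 4.09 to 4.85 against 4.27 to 7.84, and Ctnnd1, which encodes p120-catenin, at 7.57 to 8.27 against 7.97 to 9.10. Which forms of a transcript these probe sets cover was not checked, and splice forms were not measured. Among 7 other splicing regulators, Rbm47 was separated downward, at 2.89 to 6.48 in the lines with low Cdh1 and 7.66 to 9.41 in the other lines. Mbnl1 was separated upward by a margin of 0.02, at 10.92 to 11.65 against 9.51 to 10.90. Rbfox2 and Celf2 were higher in the median by 0.91 and 0.58, and overlapped.

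Elf3, an ETS factor of simple epithelia, was the other separated gene. The lines with low Cdh1 gave 3.97 (PPT-16992), 4.76 (ASC-5193), 5.06 (ASC-53909), 5.07 (PPT-3250), 5.21 (PPT-5320) and 5.54 (PPT-17728). The other lines ranged from 5.95 (PPT-5486) to 9.02 (HEP2-53631), with a median of 7.18. The interval between the groups was narrow, at 0.41, while the medians differed by -2.12, or 4.35-fold. Elf3 was above the array's median in all 23 lines.

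The 250 bases upstream of the start of Elf3 (RefSeq, GRCm38.p6, chr1:135258473-135258722, minus strand) are shown because Elf3 was 1 of the 2 separated genes, with the E-box in capitals. The search was for the E-box CACCTG on both strands (CAGGTG on the other) and for the GRHL core ACCGGT, which reads the same on both strands, and neither motif contains the other. Of the 9 genes, 2 matched an entry of the promoter table. The E-box was found in 17.2% and the GRHL core in 1.86% of all 32841 upstream windows of this length. Elf3 had 1 E-box, 140 bases before the start, and no GRHL core.
Elf3: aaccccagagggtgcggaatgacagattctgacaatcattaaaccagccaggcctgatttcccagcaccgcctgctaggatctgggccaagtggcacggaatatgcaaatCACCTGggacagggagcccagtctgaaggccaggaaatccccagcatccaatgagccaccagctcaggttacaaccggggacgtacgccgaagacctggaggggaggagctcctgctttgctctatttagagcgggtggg

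Ehf, the closely related ETS factor, had the largest median difference of the 9 genes in log2 signal, at -4.61. The lines with low Cdh1 were between 1.89 and 2.89, with a median of 1.95, and none was above its array's median, so that no fold is given. The other lines ranged from 2.87 to 9.08 with a median of 6.56, and 16 of 17 lay above all lines with low Cdh1. The exception was B-6051, since PPT-16992 reached 2.89 and B-6051 only 2.87. The next lowest were PPT-3107 at 4.0, B-152727 at 4.74 and PPT-6051 at 5.12, and the highest were HEP2-53631 at 9.08, PPT-53631 at 8.49 and LN1-15272 at 8.31. Of the 3 further Ehf probe sets, 1 separated the groups completely (2.13 to 2.97 against 3.33 to 8.05), 1 differed by -1.59 in the median with 3 lines overlapping, and 1 was flat at 1.86 to 2.53 in all lines.

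Klf5, a zinc-finger factor of proliferating epithelium, was bright throughout. It gave 7.44 in ASC-53909, 8.32 in ASC-5193, 8.64 in PPT-3250 and PPT-16992, 9.22 in PPT-5320 and 9.85 in PPT-17728, against 9.18 to 10.74 with a median of 10.21 in the other lines. The medians differed by -1.57, or 2.97-fold, but PPT-17728 lay above 4 of the other lines. The lowest line was still far above its array's median, so Klf5 was lower in these lines but well detected. Klf4, a relative, ran the other way, at 9.27 to 11.09 with a median of 10.44 in the lines with low Cdh1 and 6.76 to 10.70 with a median of 9.52 in the other lines. Klf6 was at 8.42 to 9.48 against 9.01 to 10.27.

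Grhl2 and the Ovol genes varied little in most lines. The brightest Grhl2 probe set was above the array's median in all 23 lines but flat, at 4.19 to 4.38 in the lines with low Cdh1 and 4.08 to 5.00 in the other lines. Another Grhl2 probe set, the one with the largest SD over the lines, was at 9.29 in PPT-15272, 5.04 in LN1-15272, 4.26 in PUL-15272 and 4.22 in PPT-5671, and between 3.16 and 3.84 in the other 19 lines. Its range in the lines with low Cdh1 was 3.16 to 3.72. The 2 remaining Grhl2 probe sets varied by less than 1, so the gene's reading depended on the probe set, and the most variable one was singled out after its values were seen. The relative Grhl1 was at 2.28 to 2.76 in the lines with low Cdh1 and 2.13 to 4.73 in the other lines.

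Ovol2, a repressor of mesenchymal genes, was at 2.72 to 3.11 in the lines with low Cdh1. In the other lines it was between 2.74 and 3.52, apart from PPT-15272 at 5.47. Ovol1 was at 2.28 to 3.27 against 2.46 to 3.15, below the array's median in all 23 lines. The window upstream of Ovol2 (RefSeq, GRCm38.p6, chr2:144331363-144331612, minus strand) is shown for comparison with Elf3, and neither motif was found in it.
Ovol2: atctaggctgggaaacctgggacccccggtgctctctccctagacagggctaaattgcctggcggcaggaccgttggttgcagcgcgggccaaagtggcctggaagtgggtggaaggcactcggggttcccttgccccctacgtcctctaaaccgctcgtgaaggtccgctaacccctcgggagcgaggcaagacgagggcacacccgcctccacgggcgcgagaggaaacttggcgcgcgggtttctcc

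St14 was at 2.83 (PPT-5320), 2.87 (ASC-5193), 3.29 (PPT-16992), 3.61 (ASC-53909), 3.64 (PPT-3250) and 3.83 (PPT-17728) in the lines with low Cdh1. The other lines covered 3.30 to 9.56 with a median of 5.04, and 15 of 17 lay above all lines with low Cdh1. PPT-15272 was highest at 9.56, before PPT-5671 at 7.65, LN1-15272 at 6.78 and PUL-15272 at 6.33, and PPT-3107 (3.30) and PPT-5748 (3.40) were within the range of the low group. The medians differed by -1.59 in log2 signal, with 1 of the 6 lines with low Cdh1 above its array's median.

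The genes that work with matriptase were lower in the median in all 6 cases measured. Spint2, an inhibitor of the protease, was separated, at 3.98 to 8.39 in the lines with low Cdh1 and 10.65 to 11.72 in the other lines. Spint1, the second inhibitor, was at 3.23 to 4.01 against 3.42 to 8.50, and Prss8, which encodes the protease prostasin, at 2.42 to 2.75 against 2.61 to 6.37. Epcam, a cell surface glycoprotein that matriptase can cleave, was at 2.89 to 3.74 against 3.69 to 11.70. Scnn1a, a subunit of the epithelial sodium channel, was at 4.10 to 4.71 against 4.47 to 6.22. Tmprss4, another membrane-bound protease, was at 3.24 to 3.95 against 2.94 to 4.73.

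Apart from Cdh1, which set the groups, all 13 junction and polarity genes measured had lower medians in the lines with low Cdh1, and 6 of them (Dsp, Mal2, Lad1, Crb3, Tjp3 and Llgl2) were separated. Dsp, which encodes the desmosomal protein desmoplakin, was at 1.59 to 3.24 against 8.24 to 10.54. Mal2, a protein of apical transport, was at 0.93 to 1.99 against 5.61 to 8.63, and Lad1, a basement membrane anchor, at 3.43 to 7.61 against 8.37 to 10.48. All 6 ZEB, SNAIL and TWIST factors measured had higher medians in the lines with low Cdh1, and none was separated. Twist2 was at 5.72 to 10.42 against 3.09 to 8.70, Zeb2 at 5.88 to 8.61 against 4.10 to 8.40 and Twist1 at 6.85 to 8.48 against 2.37 to 7.87. B-6051, the line with the lowest Ehf signal among those with high Cdh1, had the lowest Twist1 (2.37), Twist2 (3.09) and Snai1 (2.44) of all lines.

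Of 5 ductal markers, 4 were lower and 1 higher in the median in the lines with low Cdh1. Krt19 was separated, at 2.87 to 9.83 against 10.29 to 13.18, and Krt7 was at 2.09 to 6.63 against 4.46 to 12.83. Krt8 was at 3.44 to 12.81 with a median of 12.15 against 12.26 to 13.75, so that it stayed bright in most lines with low Cdh1 and was lowest in ASC-5193. Sox9, a ductal transcription factor, was the one that was higher, at 6.70 to 8.02 with a median of 7.78 against 5.31 to 8.13 with a median of 7.27. All 8 fibroblast markers had higher medians in the lines with low Cdh1, with their summed log2 signal at 47.9 to 76.1 against 22.4 to 75.3. Col3a1 was at 10.40 to 12.80 in the lines with low Cdh1, and at a median of 2.81 but up to 13.01 (PPT-5486) in the other lines. Pdgfrb was at 7.30 to 9.85 against 1.44 to 10.59. The part of fibroblast transcripts in the differences of the 9 genes was not tested, and fewer epithelial cells in a culture and less RNA per cell cannot be told apart. Endothelial markers were near the lower end of the array, with 3 of 4 below the median in all lines. Of 5 immune markers, 3 were lower and 2 higher in the median in the lines with low Cdh1, and 2 were below the median in all lines. The only separated one was Cd14, at 6.19 to 7.87 against 9.10 to 10.91. Of 5 acinar and endocrine markers 3 were below the median in all lines.

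Among the 17 lines with high Cdh1, the 9 genes did not vary as 1 block. Elf3 and Klf5 went together, with a Spearman rho of 0.87 and a Pearson r of 0.82 over the 17 lines, and a rho of 0.97 over the means of the 9 mice. Esrp2 followed Elf3 (rho 0.70) and Klf5 (rho 0.58). Elf3 also followed Cdh1 itself (rho 0.67), within the narrow range that Cdh1 had in these lines. Ehf, although an ETS factor like Elf3, was unrelated to it (rho 0.04) and to Klf5 (rho 0.01), and was closer to Esrp1 (rho 0.55) and St14 (rho 0.53). Over the means of the 9 mice, Ehf had a rho of 0.62 with Esrp1 and 0.37 with St14. Esrp1 was above the array's median in only 3 of the 17 lines. Pairs with the dim or flat genes gave similar values, such as Ovol2 with Esrp2 (rho 0.67) and the brightest Grhl2 probe set with Elf3 (rho 0.59) and Ehf (rho -0.48). St14 was unrelated to Elf3 (rho -0.05). These values are descriptions over lines of which several share a mouse.

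**Figure D2:**
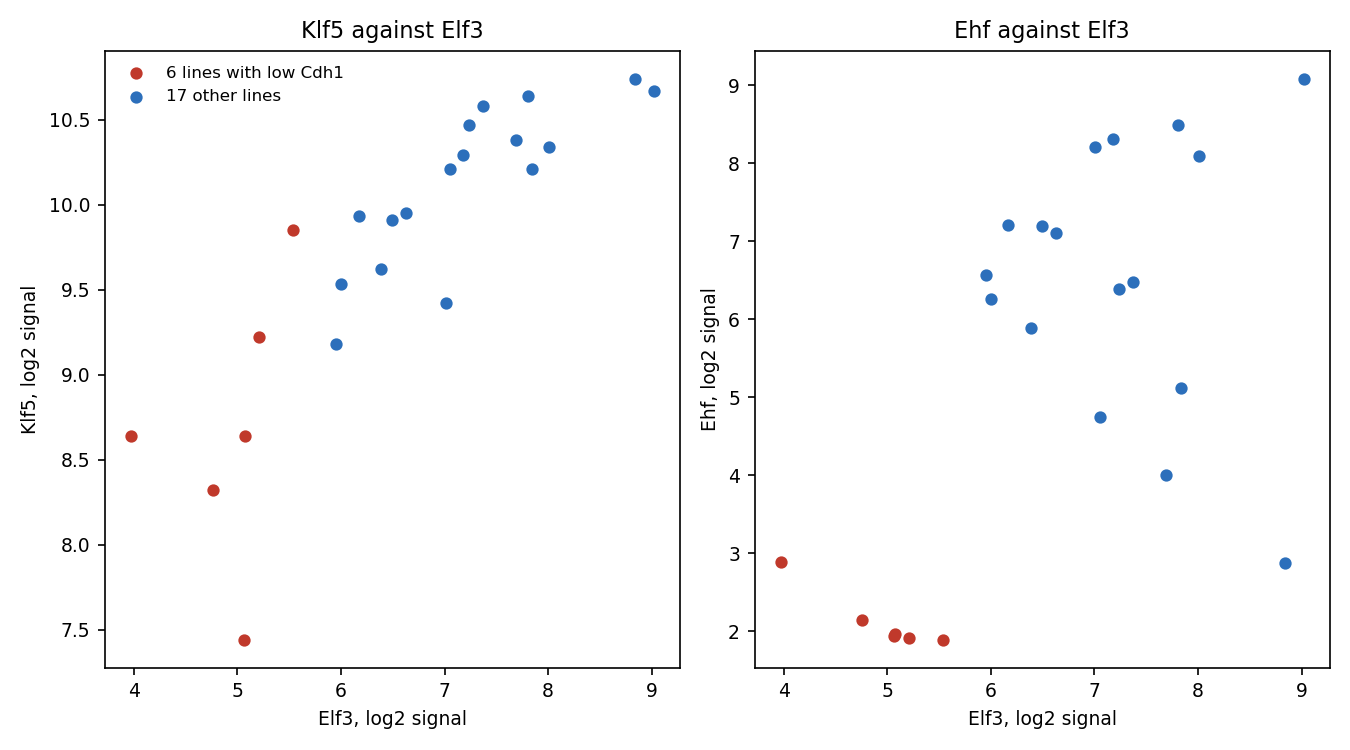
Log2 signals of Klf5 (left) and Ehf (right), each against Elf3, with 1 point per line, for the 6 lines with low Cdh1 (red) and the 17 other lines (blue). Klf5 rose with Elf3 over the 17 lines (rho 0.87), while Ehf did not (rho 0.04), and B-6051 combined an Elf3 signal of 8.84 with an Ehf signal of 2.87.

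The second pattern was carried by PPT-15272. Esrp1 was 3.15 above the next line there, Grhl2 (most variable probe set) 4.25, Ovol2 1.95 and St14 1.91. Esrp1 and Grhl2 (most variable probe set) had a Pearson r of 0.90 but a rho of 0.33 over the 17 lines, and without PPT-15272 an r of 0.47 and a rho of 0.20, so that this relation rested on that line. Esrp2 (8.14), Elf3 (7.01) and Klf5 (9.42) were not raised in PPT-15272, and Klf5 was the second lowest of the 17 lines. PPT-15272 also had the highest signal of all lines for 9 of the 14 junction genes and for 4 of the 6 matriptase partners, against 4.47% of all genes. The count was smaller in other lists, with 3 of the 9 genes by their brightest probe sets and 1 of 5 ductal markers. It was 1 of 8 relatives of the 9 genes and 1 of 8 transcripts spliced by ESRP proteins. Rab25, a small GTPase of epithelial recycling, reached 9.25 with the next line at 6.0, and Ap1m2, an epithelial sorting adaptor, 7.77 with the next line at 4.57. Epcam was at 11.70, Cldn4 at 10.30 and Cldn7 at 11.16. In all, 54 of 45037 probe sets were more than 2 above the next line in PPT-15272, fewer than in ASC-5193 (127) and ASC-53909 (64), and its array median of 3.76 lay within the 3.58 to 3.89 of all arrays.

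The genes whose profile over the 23 lines was closest to each member were found by the smallest root mean square difference of centred log2 signals. Closest to Esrp2 were Lsr, a receptor of tricellular junctions (0.58), and AI661453 (0.589), set against a spread of Esrp2 of 1.98 (SD over the lines). Closest to Esrp1 were Tmem54 (0.533) and Ap1m2 (0.533), and closest to the most variable Grhl2 probe set were Tmem54 (0.304) and Rab25 (0.334), all of them highest in PPT-15272. Elf3 was nearest to Mgat3 (0.55) and Plekha6 (0.571), and Klf5 to Hlcs (0.43) and Rassf7 (0.439). St14 was nearest to Mctp2 (0.748) and Slc4a11 (0.826), and Ovol2 to Foxn1 (0.204) and Asb2 (0.239). The nearest genes of Ehf were Shtn1 (1.31) and Arhgef16 (1.34), set against a spread of Ehf of 2.42. The profiles of Ovol1 (nearest Vsig2, 0.157, and Cd209f, 0.171) and the brightest Grhl2 probe set (nearest Tmem52, 0.123, and Fcnb, 0.129) were nearly flat, and their neighbours carry no pattern.

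Of these 19 nearest genes, 14 matched an entry of the promoter table. The E-box was present in 6 of the 14 (Ap1m2, Lsr, Arhgef16, Rab25, Mctp2 and Rassf7) and the GRHL core in 0. Of all upstream windows, 17.2% held the E-box and 1.86% the GRHL core, counted by window and not by gene. An excess over these shares was not tested. The windows of Lsr (chr7:30973470-30973719, minus strand) and Ap1m2 (chr9:21312334-21312583, minus strand), from RefSeq on GRCm38.p6, are shown because they follow Esrp2 and Esrp1 and held the most E-boxes, 4 each. Capitals mark the E-box on either strand. A match is a description of the letters, and binding was not measured.
Lsr: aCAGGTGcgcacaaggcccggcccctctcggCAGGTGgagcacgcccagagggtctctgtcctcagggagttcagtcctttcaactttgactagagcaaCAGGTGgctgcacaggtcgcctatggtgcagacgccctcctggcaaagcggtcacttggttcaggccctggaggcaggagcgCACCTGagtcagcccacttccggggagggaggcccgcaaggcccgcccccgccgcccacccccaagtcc
Ap1m2: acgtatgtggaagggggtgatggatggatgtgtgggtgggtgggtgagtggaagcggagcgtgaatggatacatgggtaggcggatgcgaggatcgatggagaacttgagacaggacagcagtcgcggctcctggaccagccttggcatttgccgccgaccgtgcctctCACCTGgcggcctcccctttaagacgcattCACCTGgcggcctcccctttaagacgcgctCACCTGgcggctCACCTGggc

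Lines of the same mouse could differ widely. Mouse 15272 gave 3 metastasis lines, B-152727, LN1-15272 and PUL-15272, besides PPT-15272. St14 was at 4.10, 6.78 and 6.33 in these metastasis lines, against 9.56 in PPT-15272. Esrp1 was at 2.34, 4.23 and 2.83, against 7.76, and Grhl2 (most variable probe set) at 3.67, 5.04 and 4.26, against 9.29. Ovol2 was at 3.23, 3.43 and 3.46, against 5.47. These 4 genes were listed here because PPT-15272 had the highest signal of all lines. Lower signals in the 3 metastasis lines follow from that choice and say nothing about site. By the brightest Grhl2 probe set, B-152727 (4.7) and PUL-15272 (4.61) were above PPT-15272 (4.52), and LN1-15272 (4.44) was below it. LN1-15272 was the highest of the 3 metastasis lines for Esrp1, Grhl2 (most variable probe set) and St14. Elf3, in contrast, was at 7.05, 7.18 and 7.24, against 7.01, and Esrp2 at 7.80, 8.26 and 8.87, against 8.14.

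In another mouse, the metastasis line ASC-5193 belonged to the lines with low Cdh1 and the primary tumour line PPT-5193 did not. Esrp2 was at 2.55 in ASC-5193 and 7.42 in PPT-5193, Ehf at 2.14 and 7.10, Elf3 at 4.76 and 6.63, St14 at 2.87 and 5.04, and Klf5 at 8.32 and 9.95. In mouse 53631, Esrp1 was at 4.61 in HEP2-53631, 2.47 in B-53631 and 2.33 in PUL3-53631, against 2.98 in PPT-53631. In the remaining mouse, Elf3 was at 8.84 in B-6051 and 7.84 in PPT-6051, while Ehf was at 2.87 in B-6051 and 5.12 in PPT-6051. Over the 8 pairs of a metastasis line with the primary tumour line of its mouse, St14 was lower in the metastasis line in 7, Ehf and Esrp1 in 6 each, Klf5 and Esrp2 in 3 each and Elf3 in 2. The pairs are not independent, since mice 15272 and 53631 account for 6 of them.

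**Figure D3:**
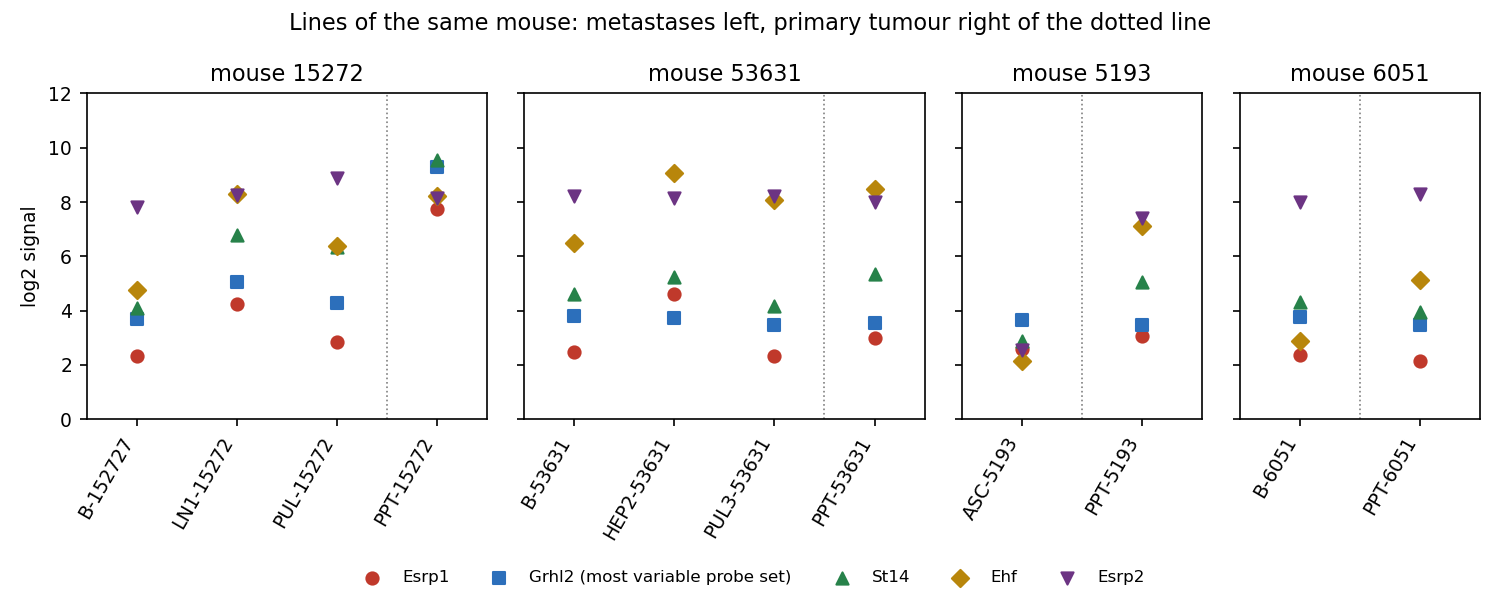
Log2 signals (vertical axis) of Esrp1, Grhl2 (most variable probe set), St14, Ehf and Esrp2 in the lines of the 4 mice that gave both sites, metastasis lines left and the primary tumour line right of the dotted line, 1 array per point. Esrp1, Grhl2 and St14 were highest in PPT-15272 within mouse 15272, Ehf was lower in B-6051 than in PPT-6051, and Esrp2 differed by more than 1 between a metastasis and a primary tumour line of the same mouse only for ASC-5193 and PPT-5193.

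Across all lines, metastasis and primary tumour lines were compared by limma with the mouse as a random block, since lines of 1 mouse are alike. No probe set of the 45037 passed an adjusted p of 0.05 (0%), 1649 had an unadjusted p under 0.05, and 0 of the 9 genes passed. Elf3 was at 4.76 to 9.02 with a median of 7.18 in metastasis lines and at 3.97 to 7.84 with a median of 6.20 in primary tumour lines, and its log2 fold change was 0.54 ± 0.47 (SE, limma adjusted p = 1). St14 was at 2.87 to 6.78 with a median of 4.60 in metastasis lines and at 2.83 to 9.56 with a median of 3.84 in primary tumour lines (-0.30 ± 0.63, limma adjusted p = 1). The log2 fold changes of the other 7 genes lay between -0.35 (Esrp1) and 0.16 (Esrp2 and Klf5). With the mouse as a fixed block, which compares lines within mice only, the log2 fold changes were -2.14 ± 0.77 (SE) for Ehf, -1.71 ± 0.65 for St14 and -1.39 ± 0.79 for Esrp1. The limma adjusted p was 0.999 for all 9 genes in that fit, and between 0.995 and 1 for these 3 genes over all alternatives by site.

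Lines with high Bez235 IC50 were compared with those with low IC50 by limma. Again 0 of 45037 probe sets passed (0%), with 1803 at an unadjusted p under 0.05, and 0 of the 9 genes passed. St14 had the largest difference, with 2.87 to 9.56 and a median of 5.12 in lines with high IC50 and 2.83 to 6.78 and a median of 4.06 in lines with low IC50, and a log2 fold change of 1.05 ± 0.64 (SE, limma adjusted p = 1). Without PPT-15272, a line with high IC50, it was 0.52 ± 0.54. Elf3 was at 4.76 to 7.24 with a median of 6.39 in lines with high IC50 and at 3.97 to 9.02 with a median of 7.28 in lines with low IC50 (-0.63 ± 0.53, limma adjusted p = 1). Klf5 gave -0.52 ± 0.34 and Ovol2 0.27 ± 0.22, and the other genes lay between -0.23 and 0.38. The groups overlapped for every gene.

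Lines with the Trp53 R172H allele were set against lines with no listed Trp53 allele, with 6 and 7 lines. Of 45037 probe sets, 104 passed in limma (0.231%), 65 higher and 39 lower in R172H lines, a split that became 36 higher and 62 lower after quantile normalization. This fit counted lines of the same mouse as independent, and 38 probe sets passed with the mouse as a random block. None of the 9 genes passed. Elf3 was at 4.76, 5.95, 6.63, 7.69, 7.84 and 8.84 in R172H lines, against 3.97, 5.06, 5.07, 5.21, 5.54, 6.0 and 6.39 in the lines with no listed allele, and its log2 fold change was 1.63 ± 0.58 (SE, limma adjusted p = 0.25). The log2 fold change of Esrp2 was 2.09 ± 1.01 (limma adjusted p = 0.402) and that of Ehf 1.38 ± 1.00 (limma adjusted p = 0.607). The groups differed in Cdh1 as well, since 1 of the 6 R172H lines but 5 of the 7 lines with no listed allele had low Cdh1. Among lines with high Cdh1, Elf3 was at 5.95 to 8.84 in 5 R172H lines and at 6.0 and 6.39 in 2 lines with no listed allele, and Esrp2 at 6.49 to 8.31 in the R172H lines and at 6.96 and 7.53 in the lines with no listed allele. The part of low Cdh1 in the differences by Trp53 allele was not tested.

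**Figure D4:**
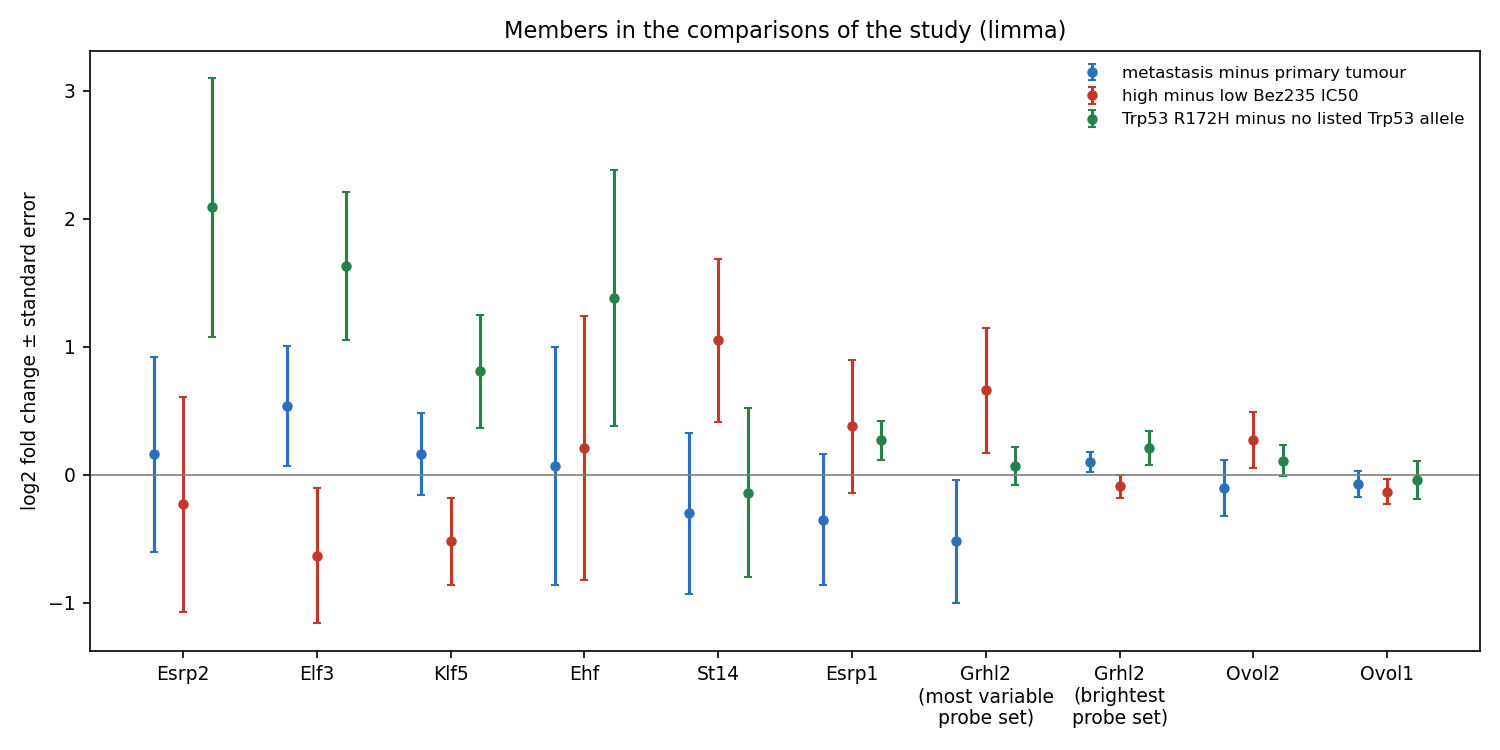
Log2 fold change with its standard error (vertical axis) of each gene in the comparisons of metastasis with primary tumour lines (blue), high with low Bez235 IC50 (red) and Trp53 R172H with no listed Trp53 allele (green), from limma. The largest values were those of Esrp2 (2.09 ± 1.01) and Elf3 (1.63 ± 0.58) by Trp53 allele, and no gene passed the adjusted threshold in any comparison.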

How the data were processed

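RNA of 23 untreated murine PDAC lines was measured on 1 array each. The authors deposited log2 values that had been background-corrected, normalized between arrays and summarised per probe set; the study's methods name VSN and the submitters' processing notes name RMA, with versions not given in the sources used here. They were used as deposited, without a pseudocount. A signal was counted as above or below an array's median by the median of all values, 3.76. Of 45101 probe sets, 64 controls were left out and 45037 tested. The platform's annotation gave a single symbol to 34945 of these, several symbols to 932 and none to 9160, and only the first kind was named. Precision is set by the number of arrays and the spread between lines.

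Sites came from the line names. The Bez235 and Trp53 groups, the Cre drivers and the reporter alleles were looked up by line name in the study's supplementary tables. Groups were compared in R 4.3.3 with limma 3.58.1 (lmFit, eBayes), adjusted by Benjamini-Hochberg over all probe sets at a threshold of 0.05. Centred signals of lines from the same mouse correlated (median r 0.417 over 15 pairs, against -0.0854 over 238 other pairs), so by the mouse numbers in the names the mouse was a random block in the site comparison (correlation 0.243) and an alternative elsewhere. Nothing in the labels says whether lines are separate cultures of 1 tumour or separate tumours. No arrays were identical. The fits were tested on simulated data. Low Cdh1 was set at the widest gap between sorted Cdh1 signals. Lines, lists and figures were handled in Python 3.11.15 with pandas 2.3.3 and matplotlib 3.10.9.

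The genes named are the 9 members, Cdh1, up to 4 genes of each list with the largest median difference, and the 2 genes nearest to each member by profile; others named were chosen after their values were seen. The members, lists and tests were chosen with earlier results of these data known. Alternatives were quantile normalization, centring, a filter on dim probe sets, other blocks, a covariate for site, other probe sets and left-out lines or mice.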

Additional observations from a re-analysis of the deposited data

Results flagged for a closer look

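In groups of 4 to 10 lines, a highest or lowest line was looked for whose gap to its neighbour took an unusual share of the group's range (Dixon's test). Of 27 pairs of a gene's brightest probe set and a group, 5 were found, where chance gives about 1 in 20. The most variable Grhl2 probe set was chosen for its values, so its signal is given with no such count. Among the lines with high Bez235 IC50, PPT-15272 stood apart with 7.76 for Esrp1, 5.47 for Ovol2 and 9.29 for Grhl2 (most variable probe set). Among the Trp53 R172H lines, ASC-5193 stood apart with the lowest Esrp2 signal, 2.55, and B-6051 with the highest Ovol1 signal, 3.15. Among the lines with no listed Trp53 allele, PPT-5671 had the highest St14 signal, 7.65. ASC-5193 is the only R172H line with low Cdh1.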

How the results depend on the processing

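None of the 9 genes passed the limma threshold in any of 219 alternative values by site, Bez235 IC50 or Trp53 allele (smallest adjusted p 0.184), and 184 kept their direction. No probe set was called by site or by Bez235 IC50 in any alternative, with or without the mouse as a replicate block. By Trp53 allele, 104 probe sets were called, but 56 after centring and 38 with the mouse as a random replicate block; the causes were not tested. Esrp2 and Elf3 were the 2 separated genes, and PPT-15272, left out after the data were seen, did not change that count. It was 0 with only the 3 lines whose Cdh1 lay below the median of all values counted as low. That alternative leaves other lines with little Cdh1 in the comparison group. With other probe sets the count was 1 (Ehf). Esrp1, Ovol2, Elf3 and St14 have no other probe set, so Elf3 could not be checked in this way.

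The signs that turned were all of log2 fold changes that passed in no setting. By site, without PPT-15272, Esrp1 was 0.32, Ovol2 0.22 and St14 0.31, and by Bez235 IC50 Esrp1 was -0.21, Ovol2 0 and Ehf -0.12. By site, Ovol2 was 0.03 and St14 0.14 with no replicate block, and with the mouse as a fixed replicate block Esrp2 was -0.93, Ovol1 0.03, Elf3 -0.03 and Ehf -2.14. Leaving out each mouse with both sites gave -0.59 to 0.19 for Esrp1, -0.28 to 0.79 for Esrp2, -0.16 to 0.17 for Ovol2, -0.39 to 0.64 for Ehf and -0.10 to 0.39 for Klf5. By Bez235 IC50, Ehf was -0.03 with the mouse as a random replicate block and -0.05 with the site as a covariate. With only brighter probe sets, Ehf was -0.22 by site. Other probe sets gave, by site, -0.52 for Grhl2 (most variable probe set) and -0.10 for Klf5, and by Bez235 IC50 0.66 (most variable), 0.11 and 0.05 for Grhl2, 0.12 for Ovol1, and -0.10, -0.10 and -0.03 for Ehf. By Trp53 allele they gave -0.07 and -0.22 for Grhl2, -0.13 for Ehf and -0.12 for Klf5. The cause of these turns was not tested. Signals of Esrp1, Ovol1 and Ovol2 lay below the array's median in most lines, which limits what their differences can show.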

Other observations

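Closing the list of related genes, Hpn, which encodes hepsin, another membrane-bound serine protease, was at 3.34 to 4.01 in the lines with low Cdh1 and 3.40 to 5.86 in the other lines. Its highest signal, 5.86, was again in PPT-15272, with the next line at 4.75.

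The effect of high against low Bez235 IC50 was also set in metastasis lines against primary tumour lines, as an interaction in limma. For St14 the effect was lower in metastasis lines by a log2 difference of -3.41 ± 1.21 (SE, limma adjusted p = 0.351), for Esrp1 by -2.57 ± 0.99 (limma adjusted p = 0.362), for Ehf by -4.39 ± 2.02 and for Esrp2 by -3.59 ± 1.65 (limma adjusted p = 0.413 each). PPT-15272, which holds the highest St14 and Esrp1 signals, is 1 of only 3 primary tumour lines with high Bez235 IC50. Low Cdh1 was also spread unevenly. The 4 primary tumour lines with low Cdh1 all had low Bez235 IC50, and the 2 metastasis lines with low Cdh1 had high IC50. The part of low Cdh1 in these differences was not tested. Of 45037 probe sets 1 passed, and it was none of the 19 of the 9 genes.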
